A study of Mus musculus with 18 samples.

Results

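CpG methylation was followed through the Zfp genes, the mouse zinc finger genes whose symbols are Zfp plus a number. The members are the CpGs in 356 autosomal protein-coding genes of the GENCODE M21 annotation with such symbols, or within 500 bp of one of their transcript starts, that had at least 5 reads in all 18 libraries. Another 2 symbols of this form were left out by the rule. Of the 356 genes, 336 held such a shared CpG and 20 held none. They contributed 14315 of the 1424423 CpGs shared by all libraries. A CpG within 500 bp of a transcript start was assigned to the promoter (6839 CpGs in 301 genes), a CpG in the last exon of the longest coding transcript to the last exon (1993 CpGs in 152 genes), and any other to the rest of the gene body (5483 CpGs in 290 genes).

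The cells were mouse embryonic stem (ES) cells without their own Dnmt1, kept in serum with leukemia inhibitory factor and rescued with DNMT1 from the pPyCAGIP vector under puromycin selection. All 6 groups share this knockout, and each has 3 libraries labelled as biological replicates: WT DNMT1, the single mutants W465A and W796A, the double mutants W465A/W796A and W464A/W465A, and the triple mutant W464A/W465A/W796A, with alanine in place of tryptophan. Several stable lines were made per group, and the labels leave unsaid if each replicate is a line of its own, so the p-values may measure technical spread alone. Cells with the empty vector and the amount of DNMT1 protein were not analysed here, and a methylation table holds no expression markers by which to check the cell type. The assay was eRRBS, an enhanced form of reduced representation bisulfite sequencing, in which DNA cut with MspI, BfaI and MseI is bisulfite-converted and sequenced, so that CpG-rich fragments are covered best.

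DNMT1 copies CpG methylation onto the new strand after replication. W464 and W465 lie in its RFTS domain and W796 in its first BAH domain, both of which contact histone tails. Most Zfp genes encode C2H2 zinc finger proteins, in which short finger repeats, each folded around a zinc ion by 2 cysteines and 2 histidines, bind DNA in tandem. Many also carry a KRAB domain, which recruits the corepressor TRIM28 to silence transposable elements and imprinted loci. These genes multiplied by local duplication, stand in clusters of similar copies, and usually encode all their fingers in the last exon. In 352 members with a complete coding sequence, 340 held at least 1 finger motif (C, 2 to 4 residues, C, 12 residues, H, 3 to 5 residues, H), with a median of 11 and at most 36. All fingers lay in the last exon in 270 of those 340 genes. A strict KRAB motif was found in 110. By position, 159 members fell into 21 clusters of at least 4 genes no more than 200 kb apart, 9 of them on chromosome 7.

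6 stretches show the kinds of sequence behind the values that follow. The first is the promoter window of Zfp318, which encodes a nuclear protein needed for IgD expression in B cells and which is an unmethylated CpG-dense promoter. The next are the CpG-poor promoter windows of Zfp982 and Zfp985 from a chromosome 4 cluster, which were methylated. The last are coding stretches of the last exons of Zfp316 (CpG-dense), Zfp784 and Zfp871 (CpG-poor), all in the coding direction. Capitals mark the CGs of CpGs with at least 5 reads in all 18 libraries.
Zfp318 promoter, chr17:46383516-46383815, + strand: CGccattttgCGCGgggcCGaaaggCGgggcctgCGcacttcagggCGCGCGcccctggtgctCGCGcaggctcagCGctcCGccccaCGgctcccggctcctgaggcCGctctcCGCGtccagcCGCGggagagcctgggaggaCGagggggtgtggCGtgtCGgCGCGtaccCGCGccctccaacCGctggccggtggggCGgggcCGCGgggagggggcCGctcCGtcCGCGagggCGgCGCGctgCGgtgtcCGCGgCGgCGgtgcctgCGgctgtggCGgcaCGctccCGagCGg
Zfp982 promoter, chr4:147492167-147492466, + strand: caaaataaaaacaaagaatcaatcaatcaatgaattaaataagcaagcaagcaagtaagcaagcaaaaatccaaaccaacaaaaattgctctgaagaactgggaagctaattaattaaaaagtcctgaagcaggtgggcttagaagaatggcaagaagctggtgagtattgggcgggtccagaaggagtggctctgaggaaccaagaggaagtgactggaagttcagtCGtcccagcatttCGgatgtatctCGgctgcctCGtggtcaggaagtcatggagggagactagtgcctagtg
Zfp985 promoter, chr4:147553027-147553326, + strand: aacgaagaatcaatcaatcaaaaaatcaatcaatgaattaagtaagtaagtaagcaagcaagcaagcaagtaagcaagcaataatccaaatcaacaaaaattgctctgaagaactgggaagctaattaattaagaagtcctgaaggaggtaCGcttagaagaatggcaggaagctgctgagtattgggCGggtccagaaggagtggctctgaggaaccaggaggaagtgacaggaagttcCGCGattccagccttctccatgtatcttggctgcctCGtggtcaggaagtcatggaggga
Zfp316 last exon, chr5:143253733-143253900, - strand: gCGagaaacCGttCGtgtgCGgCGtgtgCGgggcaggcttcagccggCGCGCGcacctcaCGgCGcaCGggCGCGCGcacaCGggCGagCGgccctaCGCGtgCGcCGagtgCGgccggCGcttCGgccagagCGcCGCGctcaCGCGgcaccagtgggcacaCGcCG
Zfp784 last exon, chr7:5036079-5036246, - strand: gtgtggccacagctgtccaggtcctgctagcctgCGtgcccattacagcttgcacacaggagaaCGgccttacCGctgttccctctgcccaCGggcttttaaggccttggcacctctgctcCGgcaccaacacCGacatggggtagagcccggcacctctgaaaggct
Zfp871 last exon, chr17:32774814-32774981, - strand: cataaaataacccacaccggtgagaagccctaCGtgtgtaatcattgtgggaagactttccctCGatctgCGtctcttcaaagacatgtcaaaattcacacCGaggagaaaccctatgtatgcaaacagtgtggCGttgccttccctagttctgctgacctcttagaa
The promoter windows are from RefSeq (GRCm38.p6) and hold 250 bases before and 50 after the start. The exon stretches are from GRCm38.

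The Zfp318 window holds 49 CGs, 47 of them shared, and the Zfp982 and Zfp985 windows hold 5 and 6, of which 4 and 5 are shared. In WT the shared CpGs of the Zfp318 window had a mean level of 0.252%, and none exceeded 2.38%. Those of the Zfp982 window had levels of 60.3 to 83.0% (mean 76.6%) and those of the Zfp985 window 38.8 to 59.8% (mean 50.8%). In W465A these means were 0.537% for Zfp318, 31.3% for Zfp982 and 3.92% for Zfp985. Of the shared CpGs in the last exon stretches, 22 of 32 in Zfp316, 4 of 6 in Zfp784 and 3 of 5 in Zfp871 lay in finger codons. Their mean WT levels were 1.07, 87.3 and 81.6%, and their W465A levels 0.290, 31.0 and 15.6%. The Zfp982 window shares an exact run of 71 bases with that of Zfp600, and the Zfp985 window one of 50 bases with that of Zfp987. How reads that match several such copies were treated is not given in the sources used here, so values of single genes in these clusters are uncertain.

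Libraries held 59776439 to 138978763 CpG calls, and the median number of reads at a shared CpG was 12 to 29. Among Zfp CpGs, the median over CpGs of the lowest library's reads was 16 in promoters, 14 in last exons and 12 in the rest. PCR duplicates cannot be told from separate molecules in these counts, so the errors given are the spread between libraries. WT replicate 1 and W796A replicate 1 were the lowest of their groups in all 3 parts of the Zfp genes, and W465A replicate 1 was the highest of its group.

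With WT DNMT1 the Zfp genes had unmethylated promoters and methylated bodies. The mean level was 3.7, 5.70 and 4.57% in the promoters of the 3 libraries (4.66% ± 1.00, SD, n = 3), 33.7, 48.0 and 39.8% in last exons (40.5% ± 7.15, SD, n = 3) and 52.3, 65.9 and 61.1% in the rest (59.8% ± 6.88, SD, n = 3). The other autosomal protein-coding genes had 9.0% ± 1.52 in promoters, 46.3% ± 6.53 in last exons and 65.1% ± 7.70 in the rest (SD, n = 3). Zfp genes lay below other genes in 18 of 18 libraries in each of the 3 parts. This difference was not tested. In last exons and the rest CpG density moved with it, while in promoters the dense share was 87.0% in Zfp genes and 86.1% in other genes. More than 20 CpGs within 250 bp surrounded 64.3% of Zfp last exon CpGs and 46.4% of those in other last exons. In the rest these shares were 19.2 and 13.3%. Within that dense class Zfp last exons had 23.0% ± 6.47 and other last exons 17.1% ± 4.56. Averaged over genes rather than CpGs, last exons had 64.3% in Zfp genes and 66.0% in other genes, promoters 8.75% and 17.3%, and rests 63.5% and 64.5%.

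**Figure D1:**
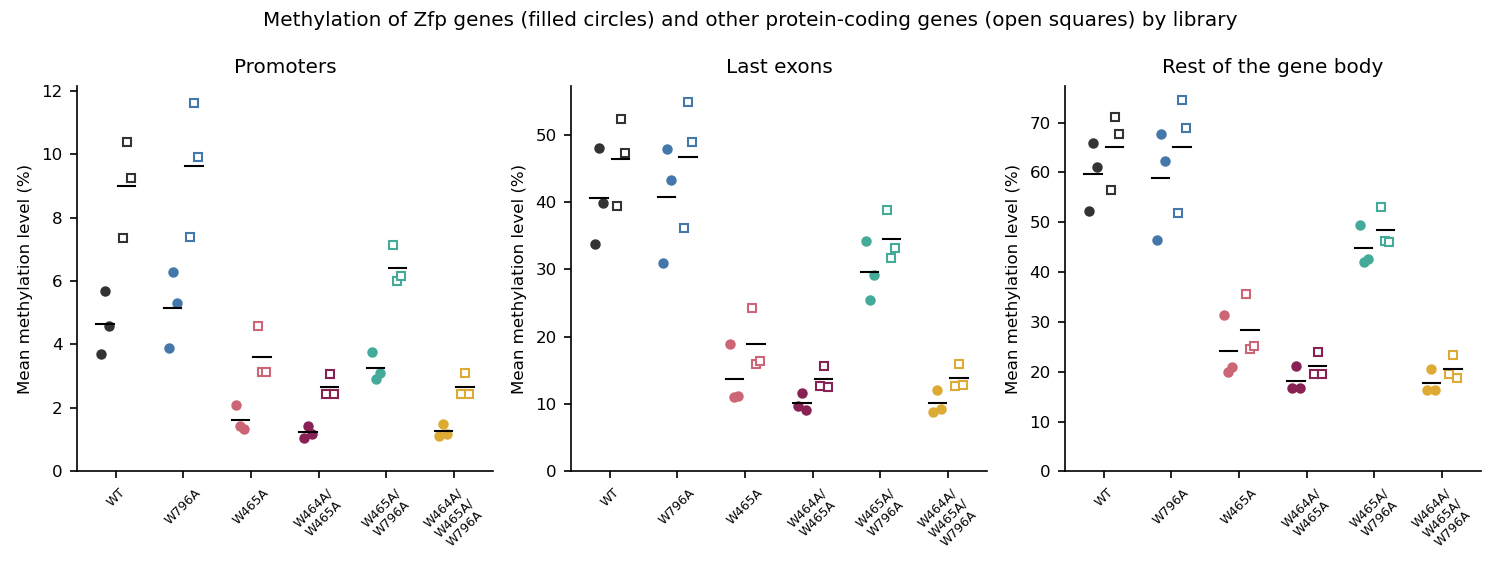
Mean methylation level (%, vertical axis) of shared CpGs in promoters, last exons and the rest of the gene body, by group. Each filled circle is a library's mean over Zfp genes, each open square its mean over other protein-coding genes, and lines are group means: W465A, W464A/W465A and W464A/W465A/W796A lie below WT, W796A overlaps WT and W465A/W796A lies between WT and W465A.

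Level rose with distance from the transcript start. In WT it was 1.56% ± 0.517 in the first 500 bp downstream, 4.73% ± 1.19 from 500 to 1000 bp, 19% ± 3.54 from 1000 to 2000 bp and 47.2% ± 7.40 from 2000 to 5000 bp (SD, n = 3). Beyond 10000 bp it was 57.2% ± 6.76. W465A had 0.576% ± 0.106 in the first 500 bp and 23.3% ± 6.21 beyond 10000 bp, a rise along the gene at a lower level.

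**Figure D2:**
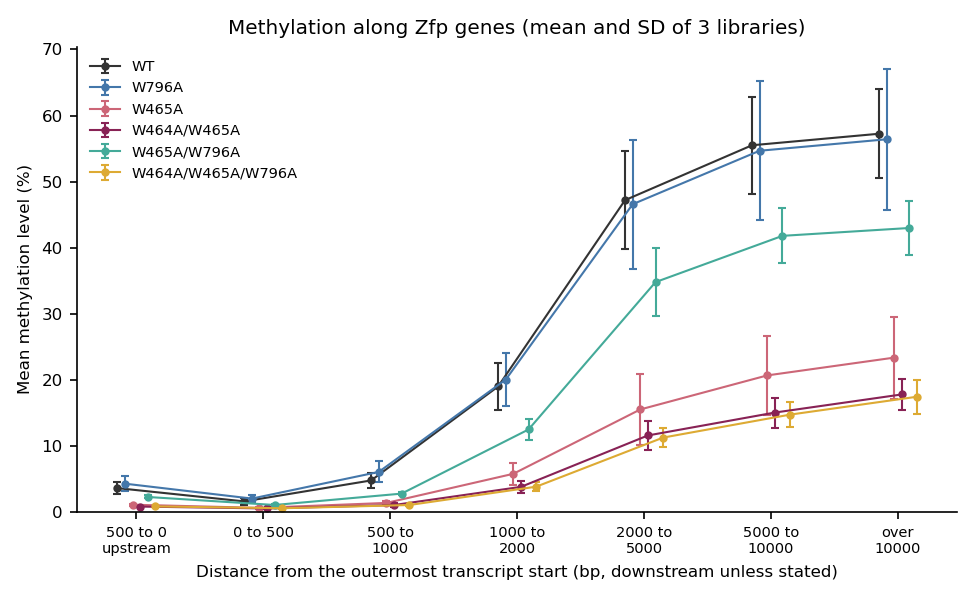
Mean methylation level (%, vertical axis) of Zfp CpGs by distance from the outermost transcript start (bp, horizontal axis), with points and bars for the mean and SD of 3 libraries in each of the 6 groups. All groups start near 0 at the transcript start, and WT and W796A reach over 55% beyond 10000 bp while W465A, W464A/W465A and W464A/W465A/W796A stay under 25%.

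Single genes were compared over features with at least 3 shared CpGs, with a gene's promoter, last exon and rest each being 1 feature. Of 743 Zfp features, 634 passed this filter: 285 promoters, 121 last exons and 228 rests. In WT, 212 of the 285 promoters had a level under 5%, 63 lay between 5 and 50%, and 10 had at least 50%. Last exons were the reverse: 93 of 121 had at least 50%, with a median of 74.6%. The 4 last exons under 5% were those of Zfp771, Zfp697, Zfp503 and Zfp467, named for that level after the values were seen. All were CpG-dense, with a median of 41 to 82 CpGs within 250 bp of their shared CpGs. Zfp503 encodes a corepressor of the NET family expressed in the developing brain and limb.

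Replacing W465 lowered the methylation of most Zfp gene bodies. In the W465A libraries Zfp promoters had 2.10, 1.42 and 1.34% (1.62% ± 0.416, SD, n = 3), last exons 19, 11 and 11.3% (13.7% ± 4.53) and the rest 31.4, 19.9 and 20.9% (24.1% ± 6.39). No W465A library overlapped a WT library in any of the 3 parts. These means were 34.8% (promoters), 33.9% (last exons) and 40.3% (rest) of WT, against 40.2, 40.7 and 43.7% in other genes. A feature was called where the quasi-binomial F test gave an adjusted p under 0.05 over all 33951 gene features and the pooled levels differed by at least 10 percentage points. By this rule 367 of the 634 Zfp features were lower in W465A, against 62.8% of all gene features. None was higher, against 0.00295% of all features and 0.007% of all promoters. They were 39 of 285 promoters (22.1% of all promoters), 110 of 121 last exons (87.3% of all last exons) and 218 of 228 rests (94.3% of all rests). The median difference was -43.4 points in Zfp last exons and -42.3 in all last exons.

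W464A/W465A and W464A/W465A/W796A gave like levels. In W464A/W465A the means were 1.23% ± 0.193 in promoters, 10.1% ± 1.31 in last exons and 18.2% ± 2.55 in the rest (SD, n = 3), and 371 features were lower than in WT (64.3% of all features): 42 promoters (24.2% of all promoters), 111 last exons (88.9%) and 218 rests (95.1%). In W464A/W465A/W796A the means were 1.26% ± 0.207, 10.1% ± 1.72 and 17.8% ± 2.44, and 370 features were lower (64.4% of all features). Of its 370, 41 were promoters (24.4% of all promoters), 112 last exons (89%) and 217 rests (95.1%). All these comparisons share the WT libraries. The 212 promoters under 5% in WT had less than 10 points to lose and could not be called lower.

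**Figure D3:**
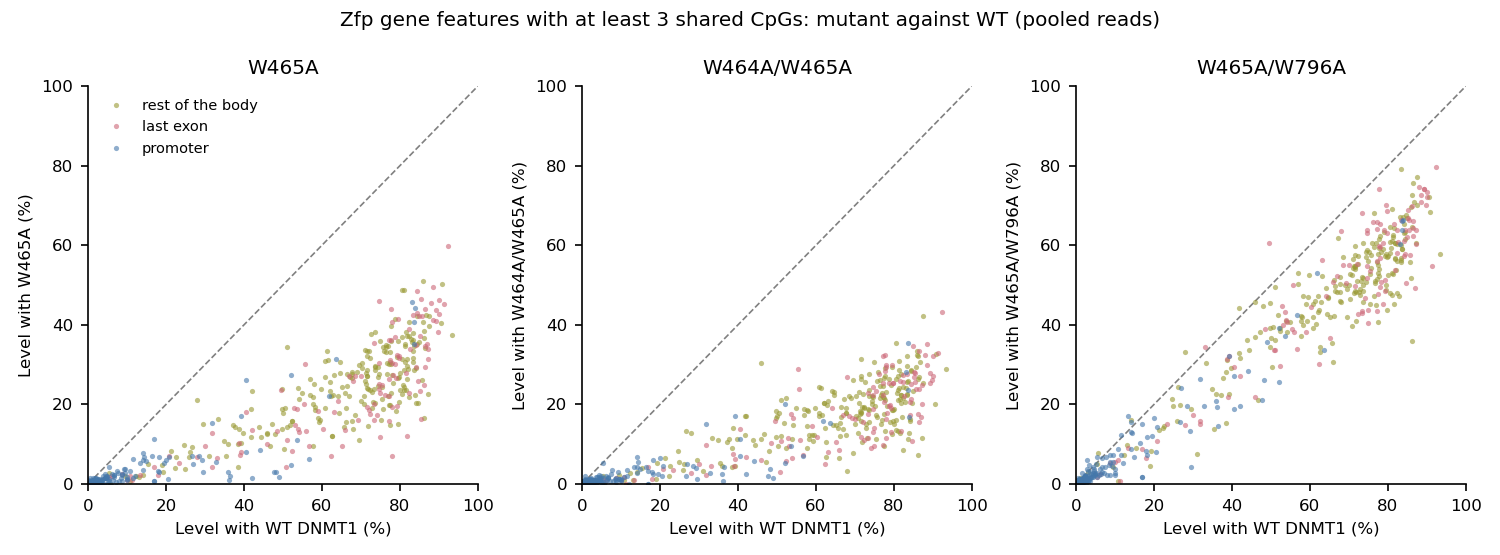
Pooled methylation level (%) of each of the 634 Zfp features in W465A, W464A/W465A and W465A/W796A (vertical axes) against WT (horizontal axes), colored by promoter, last exon and rest of the body. The dashed line marks equal levels: features lie well below it in the first panels and nearer to it in W465A/W796A.

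The Zfp members with the most shared CpGs show both ends. The promoters of Zfp777 (136 CpGs, chr6:48047323-48048920), Zfp318 (102 CpGs) and Zfp367 (96 CpGs, chr13:64150171-64153451) were between 0.108 and 1.27% in every library of every group. The last exon of Zfp316 (194 CpGs, chr5:143251384-143255416), which encodes 14 fingers, had 4.39, 6.79 and 6.19% in WT, 3.02, 1.85 and 1.07% in W465A and 0.894, 1.2 and 0.949% in W464A/W465A. Its libraries did not overlap WT (adjusted p = 0.000144 and 1.99e-05, quasi-binomial F test), but the fall was under 10 points, so it was not called. The last exon of Zfp703 (93 CpGs, chr8:26978693-26981384), a corepressor of the same family as Zfp503, went from 5.54, 11 and 8.06% in WT to 1.0, 2.02 and 1.46% in W464A/W465A and was not called for the same reason.

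The largest rests fell over many CpGs. Zfp423, a transcription factor of preadipocyte commitment and cerebellar development with 27 finger motifs, had 453 CpGs in the rest of its body (chr8:87663328-87959091). Their level was 48.0, 58.0 and 56.3% in WT, 28.8, 19.2 and 20% in W465A and 18.4, 21.6 and 17.5% in W464A/W465A (quasi-binomial adjusted p = 8.83e-05 and 2.14e-05 against WT). W465A/W796A had 44.5, 39.7 and 38.3%, wholly between the W465A and WT libraries. Zfp652 (282 CpGs), a DNA-binding repressor, had 29.5, 41.0 and 38.7% in WT and 10.1, 13.6 and 10.2% in W464A/W465A. Zfp827 (260 CpGs), which binds telomeric chromatin in cells that lengthen telomeres by recombination, had 34.2, 45.8 and 43.3% in WT and 16.1, 17.4 and 17.6% in W464A/W465A.

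The features with the largest falls in W464A/W465A, in percentage points, are given next, and only features with a high WT level can show such a fall. The Zfp982 promoter feature (15 CpGs around its annotated starts, chr4:147492121-147507367, with 205 to 580 reads per library) had 80.5, 87.2 and 79.6% in WT, 39.2, 35.8 and 30.9% in W465A and 15.1, 29.7 and 22.9% in W464A/W465A. The groups did not overlap (quasi-binomial adjusted p = 5.49e-05 and 7.65e-06 against WT). The promoter of Zfp683 (3 CpGs, chr4:134053687-134054001), the gene of the T cell factor Hobit, had 67.7, 91.1 and 87.1% in WT, 40.0, 48.3 and 43.5% in W465A and 19.6, 14.8 and 14.3% in W464A/W465A. The last exon of Zfp784 (7 CpGs, chr7:5034785-5036211) went from 75.7, 98.1 and 84.8% in WT to 41.7, 21.3 and 31.8% in W465A and 25, 14.1 and 11.7% in W464A/W465A. That of Zfp606 (3 CpGs, chr7:12495710-12495753), a KRAB zinc finger gene, went from 78.6, 86.4 and 88.9% to 7.41, 17.8 and 6.25% in W464A/W465A, with 21 to 81 reads per library behind each value. The largest called falls among rests were those of Zfp59 and Zfp383, with 3 CpGs each.

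Other members kept more. The last exon of Zfp618 (18 CpGs, chr4:63132848-63138334), which encodes a protein that binds UHRF2, a relative of the DNMT1 partner UHRF1, had 83.0, 90.8 and 88.5% in WT, 54.9, 42.8 and 49.6% in W465A and 32.1, 37.3 and 35.1% in W464A/W465A. That of Zfp704 (11 CpGs) had 78.4, 85.9 and 88.8% in WT and 34.5, 37.5 and 31.6% in W464A/W465A. Both features of Zfp957 with enough CpGs were among the highest in W464A/W465A: its promoter had 28.3, 41.7 and 35.4% and its rest 29.2, 43.2 and 29.2%. The rest of Zfp68 (5 CpGs), with 38.1, 49.3 and 35.2%, was the other. All of these were lower than in WT by the test, and were chosen for their level in W464A/W465A, which is given as a description. Among the 349 last exons and rests, 20 were not called lower in W464A/W465A, and 18 of these had less than 15% in WT.

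**Figure D4:**
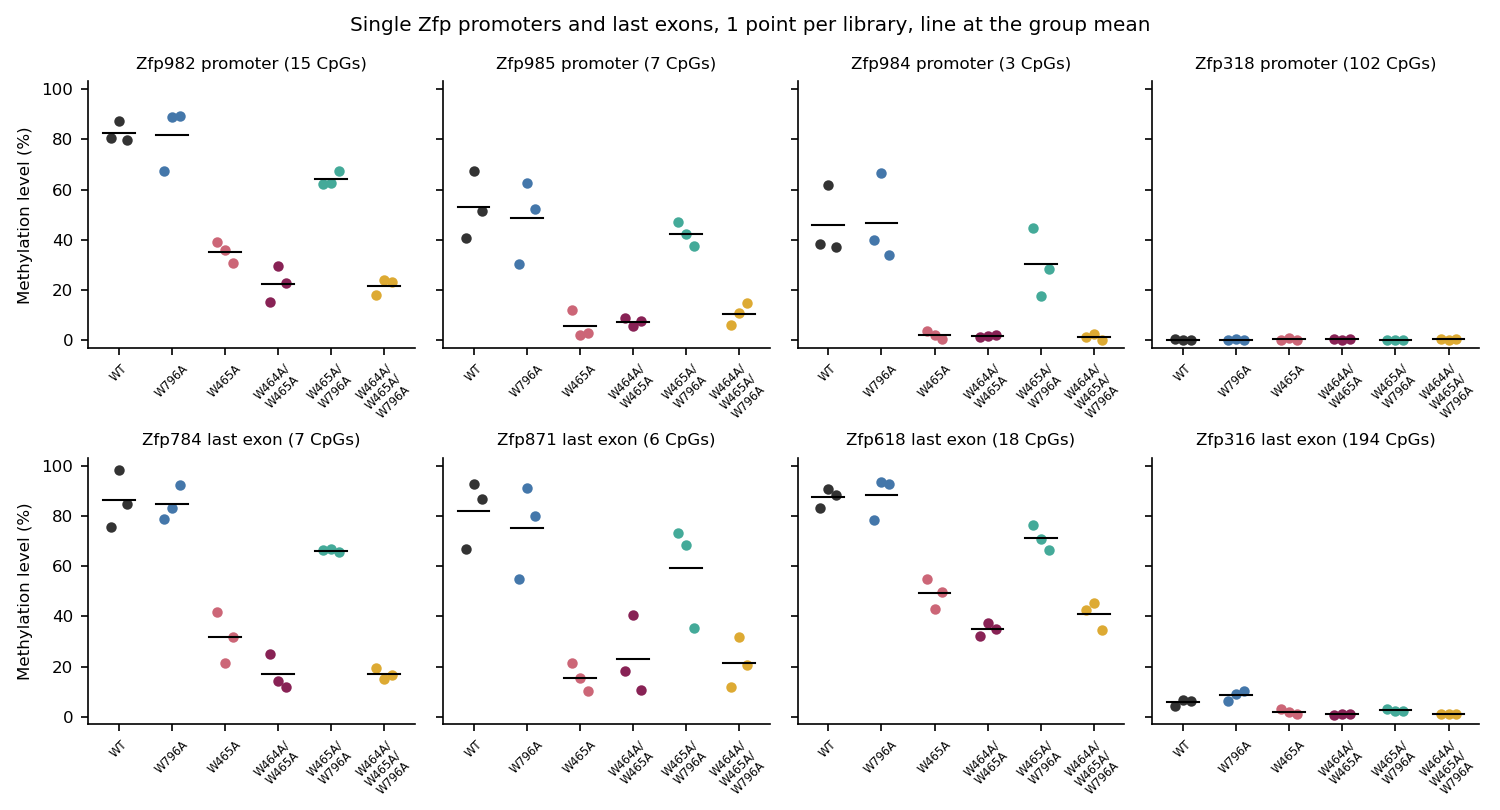
Methylation level (%, vertical axes) of 4 Zfp promoters and 4 Zfp last exons, with 1 point per library and a line at the mean of each of the 6 groups. Zfp982, Zfp985, Zfp984, Zfp784, Zfp871 and Zfp618 are lower in W465A than in WT and higher in W465A/W796A than in W465A. The CpG-dense Zfp318 promoter and Zfp316 last exon are low throughout.

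No Zfp feature differed between W796A and WT in the test without a block. Promoters had 3.9, 6.30 and 5.30% (5.16% ± 1.21, SD, n = 3), last exons 31.0, 47.9 and 43.3% (40.7% ± 8.74) and the rest 46.5, 67.6 and 62.4% (58.8% ± 11), and all 3 overlapped WT. Set against the WT library of the same number, W796A was higher in promoters in 3 of 3 pairs, in last exons in 1 of 3 and in the rest in 2 of 3. In promoters of other genes it was also higher in 3 of 3. None was called in either direction (0% of all features) by the quasi-binomial test, limma or edgeR. At an unadjusted p under 0.05, 20 of 634 were lower and 25 higher, against 601 and 1377 of 33951 over all features. Of the promoters 13 of 285 were lower and 21 higher, against 338 and 1062 of 14288 over all promoters. With the replicate number as a block over all 18 libraries, 1 of 634 was called, against 0.133% of all features. It was the Zfp560 promoter, higher by 38.8 points (adjusted p = 0.0293, quasi-binomial F test). Its 9 CpGs (chr9:20385426-20385597) had 13.2, 22.5 and 16% in WT and 38.0, 72.0 and 45.3% in W796A, with no overlap. In the W465A libraries it had 4.17, 0 and 2.94%. With the block in the WT and W796A libraries alone it was not called. Without W796A replicate 1, it and the Zfp775 promoter were called, against 0.356% of all features. The Zfp775 promoter was higher by 17.9 points (adjusted p = 0.031, quasi-binomial F test).

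Zfp genes were more methylated in W465A/W796A than in W465A. The W465A/W796A libraries had 3.76, 2.92 and 3.09% in promoters (3.26% ± 0.442, SD, n = 3), 34.2, 25.5 and 29.1% in last exons (29.6% ± 4.38) and 49.5, 42.1 and 42.7% in the rest (44.7% ± 4.11). Each library lay above each W465A library in all 3 parts. Of the 634 features 230 were called higher than in W465A (35.8% of all features). None was lower, against 0.00295% of all features and 0.007% of all promoters. They were 17 of 285 promoters (6.7% of all promoters), 62 of 121 last exons (40.8%) and 151 of 228 rests (63%). This count rested on single libraries: it was 0 (0% of all features) when replicate 2 or 3 of W465A or replicate 1 of W465A/W796A was left out. The differences of the means kept their sign.

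The 2 last exons with the largest called gain were those of Zfp871 and Zfp146, chosen for that gain. Zfp871 (6 CpGs, 15 finger motifs) had 21.3, 15.4 and 10.3% in W465A and 73.3, 68.6 and 35.5% in W465A/W796A, against 66.7, 92.7 and 86.6% in WT. Zfp146 (5 CpGs, chr7:30162846-30162885), which is made up of fingers with no KRAB domain, had 25, 7.06 and 0.870% in W465A and 63.5, 55.2 and 51.2% in W465A/W796A. The groups did not overlap in either gene (quasi-binomial adjusted p = 0.0157 and 0.0151). The promoters with the largest gain, Zfp985 and Zfp984, are described with their cluster. Among rests they were Zfp958 (19, 21.2 and 20.9% in W465A and 73.1, 53.3 and 76.4% in W465A/W796A) and Zfp825.

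Against WT, W465A/W796A stayed lower in part of the Zfp features. Its means were 69.9% (promoters), 73.0% (last exons) and 74.9% (rest) of WT, against 71.4, 74.6 and 74.4% in other genes. Its libraries overlapped WT in promoters and last exons and not in the rest. In other genes they did not overlap WT in promoters, last exons or the rest. The test called 111 of 634 features lower (25.8% of all features) and none higher: 6 promoters (6.32% of all promoters), 26 last exons (22.4%) and 79 rests (46.6%). The called promoters were those of Zfp575, Zfp600, Zfp629, Zfp934, Zfp935 and Zfp982, of which Zfp934 and Zfp935 are neighbors that share CpGs. Limma called 0 (0.00589% of all features). Leaving out WT replicate 2, or replicate 2 or 3 of W465A/W796A, gave 0 (0% of all features). Leaving out WT replicate 3 gave 1 (0.0353%). The count was 62 without W465A/W796A replicate 1 (15.5% of all features), 197 without WT replicate 1 (41.3%) and 200 without W796A replicate 1 (40.7%).

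W464A and, on top of both, W796A changed nothing that passed the test. W464A/W465A had means lower than W465A by 0.390 points in promoters, 3.62 in last exons and 5.85 in the rest, and the libraries overlapped in all 3 parts. In other genes the means were lower by 0.965, 5.21 and 7.39 points, and the libraries did not overlap in any of the 3 parts. These differences of means were not tested. No feature was called (0% of all features) by the quasi-binomial test, limma or edgeR. At an unadjusted p under 0.05, 21 of 634 were lower and 1 higher, against 1863 and 86 of 33951 over all features. The difference of W464A/W465A/W796A from W464A/W465A was 0.0303 points in promoters, -0.0293 in last exons and -0.467 in the rest. Again none of 634 was called (0% of all features) by any of the 3 tests. At an unadjusted p under 0.05, 5 were lower and 3 higher, against 171 and 120 of 33951 over all features. With 3 libraries a group, smaller changes may have been missed.

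The last exon was then divided by what it encodes. In WT, CpGs in finger codons had 33.6% ± 6.92 (723 CpGs in 73 genes), those in other codons 34.8% ± 6.92 (924 CpGs in 105 genes) and those outside the coding sequence 71.0% ± 8.50 (345 CpGs in 86 genes; SD, n = 3). The coding parts were the CpG-dense ones. Finger codons with more than 20 CpGs within 250 bp had 23.3% ± 6.67 and those with fewer had 76.5% ± 8.20, and other codons had 22.2% ± 6.12 and 68.9% ± 9.25. Non-coding CpGs at low density had 72.8% ± 8.48. The WT libraries ranged from 68.1 to 84.5% in finger codons and from 59.4 to 77.8% in other codons at low density, a difference that was not tested. In W465A the means at low density were 27.8% ± 8.61 in finger codons, 26.8% ± 8.05 in other codons and 29.1% ± 8.34 in non-coding CpGs. Dense finger codons had 5.22% ± 2.28 in W465A, 3.75% ± 0.478 in W464A/W465A and 15.9% ± 4.19 in W465A/W796A. Some genes, such as Zfp316, Zfp697 and Zfp771, hold many of these CpGs, so class means over CpGs weigh them most.

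**Figure D5:**
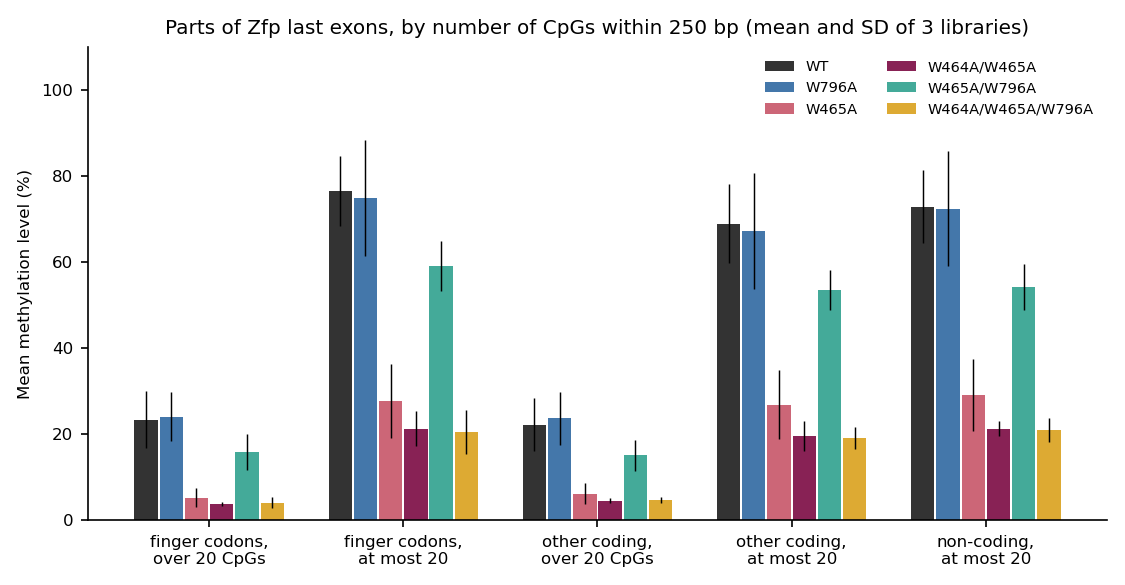
Mean methylation level (%, vertical axis, bars from 0, with SD of 3 libraries) of CpGs in finger codons, other codons and non-coding parts of Zfp last exons, split by whether more than 20 CpGs lie within 250 bp, for the 6 groups. WT bars are near 23% in dense coding parts and 69 to 77% in sparse parts, and W465A bars are lower in all 5 classes.

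Promoters followed density too. Zfp promoter CpGs with more than 20 CpGs within 250 bp, 87.0% of them, had 1.23% ± 0.400 in WT. Those with 11 to 20 had 18.6% ± 3.99, with 6 to 10 46.8% ± 7.85 and with 1 to 5 58.5% ± 7.40 (SD, n = 3). Other genes had 1.92, 43.7, 66.8 and 71.1% in these classes. RefSeq promoter windows of 300 bases were matched to 295 of the 356 Zfp genes. The first listed window of each Zfp gene held a median of 13 CGs (the letters CG, counted once for both strands). Over 15687 autosomal protein-coding genes, the first listed windows held 15. By WT promoter level, the window with the most shared CpGs was used instead, so these medians are not comparable with the 13. The median was 17 in 180 Zfp genes with a WT promoter level under 5%. It was 16 in 50 genes between 5 and 50%, and 4 (range 2 to 6) in 6 genes with at least 50%.

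The promoters of 2 clusters on chromosome 4, singled out after their values were seen, were methylated in WT. Promoter CpGs of the cluster starting at position 145510759 had 41.9% ± 11.2 in WT and those of the one starting at 146971976 had 61.1% ± 7.37 (SD, n = 3). The other 18 clusters with promoter CpGs had between 1.35 and 15.0%. All 7 tested promoters of these 2 clusters were lower in W465A (22.1% of all promoters) and in W464A/W465A (24.2%) and higher in W465A/W796A than in W465A (6.7%). Since the clusters were singled out for high WT levels, nothing is read from these counts. Outside them, 35 of 278 tested promoters were lower in W464A/W465A and 10 were higher in W465A/W796A than in W465A. Of the 42 promoters called lower in W464A/W465A, 9 were on chromosome 4, where 18 were tested, and 13 on chromosome 7, where 78 were tested. These are gene copies of recent duplication, and the match of Zfp982 and Zfp600 shown above applies to their values.

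Within these clusters Zfp985 (7 CpGs, chr4:147552825-147553498, 10 finger motifs, 88 to 296 reads per library) had the largest promoter gain. It had 40.6, 67.6 and 51.5% in WT, 12.2, 1.96 and 2.92% in W465A and 47.3, 42.3 and 37.5% in W465A/W796A (quasi-binomial adjusted p = 0.0157 for W465A/W796A against W465A). W464A/W465A/W796A had 6.28, 11 and 14.8%, below every W465A/W796A library. Zfp984 (3 CpGs, chr4:147809854-147809915) had 38.3, 61.7 and 37.2% in WT, 3.88, 2.08 and 0.465% in W465A and 44.9, 17.8 and 28.3% in W465A/W796A (adjusted p = 0.0153, quasi-binomial F test). Zfp600 had 42.2, 46.2 and 22.2% in WT, 5.0, 0 and 0% in W465A and 40.0, 17.3 and 11.8% in W465A/W796A. Zfp982, Zfp988, Zfp989 and Zfp990 moved the same way, with WT medians over libraries of 80.5, 54.0, 23.5 and 54.3%.

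Members with the strict KRAB motif had higher promoter and rest means in WT and a lower last exon mean than those without it. This difference was not tested. Members without the motif may still encode a KRAB domain, so they are not a group without the domain. Promoters of genes with the KRAB motif had 5.54% ± 1.39 in WT and 1.70% ± 0.396 in W465A, and those without 4.47% ± 0.933 and 1.60% ± 0.423. Last exons had 33.2% ± 4.62 in WT with the motif and 42% ± 7.67 without it. Of the 343 last exon CpGs with the motif, 194 lay in the CpG-dense Zfp316, which had 6.16% in WT (pooled reads). The lower mean therefore rests largely on 1 gene. The median number of CpGs within 250 bp of last exon CpGs was 42 with the motif and 27 without it. For promoters it was 30 and 45, and for rests 7 and 10. Rests had 68.5% ± 6.33 and 25.7% ± 5.47 with the motif and 58.9% ± 6.91 and 23.9% ± 6.46 without it (all SD, n = 3).

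Members with known roles were described from a list of 18 genes. Of their tested features, 2 of 18 promoters, 6 of 7 last exons and 11 of 12 rests were lower in W464A/W465A, against 24.2% of all promoters, 88.9% of all last exons and 95.1% of all rests. Zfp57 and Zfp445 protect imprints. The Zfp57 promoter (9 CpGs) had at most 1.36% in any library, and its rest, with only 2 CpGs, had 90.0, 81.0 and 68.4% in WT and 16.7, 12.5 and 9.09% in W464A/W465A. The rest of Zfp445 (3 CpGs) had 87.1, 98.0 and 91.9% in WT, 45, 32.0 and 32.3% in W465A and 38.6, 33.3 and 16.3% in W464A/W465A (quasi-binomial adjusted p = 6.68e-05 and 1.73e-05). Its promoter (31 CpGs) had 6.04, 7.79 and 5.71% in WT and 2.15, 1.61 and 1.85% in W465A.

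Zfp568 represses a placental transcript of Igf2, and Zfp809, Zfp819 and Zfp932 act on retroviral elements. The rest of Zfp568 (48 CpGs) had 64.7, 78.7 and 74.7% in WT, 38.1, 17.8 and 23.2% in W465A and 64.4, 54.1 and 55.7% in W465A/W796A, all above the W465A and below the WT libraries. Zfp809 had a promoter (13 CpGs) of at most 0.769% in any library and a rest (10 CpGs) of 58.8, 63.7 and 61.4% in WT and 15.3, 13.6 and 13.2% in W464A/W465A. The rest of Zfp819 (5 CpGs) was low in WT, at 29.6, 36.4 and 15.6%, and had 10.7, 12.5 and 15.2% in W464A/W465A. The Zfp932 promoter (9 CpGs) had 1.19, 15.2 and 2.03% in WT, so that 1 library stood apart.

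Among factors active in ES cells or their exit from pluripotency, the promoters of Zfp281 (17 CpGs) and Zfp143 (40 CpGs) were at most 1.36 and 0.690% in any library. The last exon of Zfp296, a factor that binds KLF4 in ES cells, had 50, 82.8 and 48.9% in WT, 21.3, 3.12 and 8.95% in W465A and 49.6, 32.5 and 49.7% in W465A/W796A. Zfp462, a heterochromatin-binding protein with 33 finger motifs, had 65.1, 81.0 and 79.3% in its last exon in WT and 30.8, 13.3 and 28.2% in W464A/W465A. The 2 promoters of the list that were called lower were those of Zfp423 and Zfp521, homologous factors of neural and mesenchymal differentiation. Zfp423 had 11.7, 18.2 and 10.9% in WT and 3.89, 3.01 and 4.74% in W464A/W465A. Zfp521 had 3.78, 28.7 and 20.7% in WT and 3.88, 6.27 and 3.09% in W464A/W465A, so that WT replicate 1 overlapped.

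Among the other genes of the list, the rest of Zfp91 (37 CpGs), an E3 ubiquitin ligase gene, had only 4.21, 6.11 and 5.69% in WT and was not called. Zfp148, which binds GC-rich promoters, had 73.8, 84.7 and 79.9% in its rest (46 CpGs) in WT and 29.6, 37.9 and 23.7% in W464A/W465A. Zfp335, part of an H3K4 methyltransferase complex, had 90.4, 87.6 and 90.0% in its last exon in WT, 55.7, 28.6 and 40.1% in W465A and 78.2, 62.7 and 73.6% in W465A/W796A. Zfp217, an oncogene homolog, had 68.5, 82.8 and 76.0% in its rest in WT and 17.8, 22.6 and 18.4% in W464A/W465A. The Zfp36 gene encodes tristetraprolin, a CCCH finger protein that promotes mRNA decay and held no C2H2 motif. Its promoter (9 CpGs) had 2.78, 11.6 and 8.44% in WT and 0.680, 0.515 and 0.847% in W464A/W465A.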

How the data were processed

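The table deposited by the authors gives 2 raw counts per CpG and library, methylated reads and total reads, neither of them normalized. The submitters' processing notes name cutadapt 1.2.1, Bismark 0.18.1 and Bowtie 1.2, and the builds mm10 and GRCm38. Parameters and duplicate removal are not given in the sources used here. All 36 count columns were mapped by their names. The 21867550 positions include, for each of the 19 autosomes, every CpG of the GRCm38 reference and no other position. Positions are 1-based.

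CpGs with at least 5 reads in all 18 libraries were kept (1424423, or 6.51%). A CpG's level is its methylated reads divided by its total reads, and means weigh CpGs equally. Parts were assigned in the order promoter, last exon, rest. For the test, reads were summed over each gene feature with at least 3 shared CpGs and fitted for the 6 groups together with a quasi-binomial logistic model (12 residual degrees of freedom, overdispersion squeezed by the method of limma's squeezeVar, prior 3.99 with 2.57 degrees of freedom). The F test was adjusted by Benjamini-Hochberg over 33951 features of autosomal protein-coding genes. Named genes were, for each part, the 3 with the most CpGs, the 2 with the largest called fall in W464A/W465A without overlap, the 2 with the highest level there among those with at least 5 CpGs, and the 2 with the largest called difference of W465A/W796A from W465A, plus up to 3 a direction called in W796A (none) and 18 genes of known role. Members, lists and rules were chosen with earlier results of these data known. Means over members carry no test.

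The model was tested on simulated data for W465A against WT with 33951 features. It recovered 36 of 100 features changed by 20 points and 66 of 100 changed by 40, and called 6 unchanged ones. Only these sets of 100 were changed, while 62.8% of all features were called lower in W465A in the data. The cutoff set by Benjamini-Hochberg depends on that share, so these rates need not hold for the data. Of unchanged features 6.82% had an unadjusted p under 0.05, above the nominal share. Limma 3.58.1 (with 0.5 added to counts before log2 ratios) and the quasi-likelihood test of edgeR 4.0.16 in R 4.3.3 were alternatives. Other steps used numpy 2.4.6, scipy 1.17.1 and Python 3.11.15. Finger and KRAB motifs were counted in translated GENCODE coding sequences, and not in RefSeq proteins as planned. Between WT and W796A, libraries with the same number deviated together from their groups: correlations over features were 0.553, 0.492 and 0.201, and at most 0.143 for differing numbers. This was the 1 comparison in which all 3 exceeded 0.1. The pairing there rests on the data, and the labels name no source for it. The tests of a difference between backgrounds, and the block in WT and W796A alone, were added after the counts of calls were seen.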

Additional observations from a re-analysis of the deposited data

Results flagged for a closer look

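The effect of W796A differed between the WT and W465A backgrounds at some Zfp features, a call that most omissions of 1 library ended. The difference of the W796A effect in W465A cells from that in WT cells was tested after the counts of calls had been seen. The quasi-binomial F test asked if the effects add up on the scale of log odds of methylation. A call also needed a difference of differences of at least 10 percentage points, but differences in points were not themselves tested. A difference was called in 20 of 634 Zfp features (2.66% of all features), all in the direction of a higher effect in W465A. At an unadjusted p under 0.05, the difference in points was higher in 249 and lower in 6. The share over all features at this p is not given here, so nothing about Zfp genes is read from these counts. The median difference of differences was 12.2 points over the Zfp features and 13.8 over all features. The 20 were 5 promoters (Zfp12, Zfp936, Zfp984, Zfp985 and Zfp989), 5 last exons (Zfp30, Zfp146, Zfp553, Zfp691 and Zfp777) and 10 rests (Zfp64, Zfp65, Zfp141, Zfp318, Zfp335, Zfp398, Zfp532, Zfp646, Zfp865 and Zfp980).

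As examples chosen after their values were seen, the Zfp936 promoter had 31.6, 48.0 and 18.1% in WT, 9.76, 13.9 and 15.0% in W796A, 1.22, 1.16 and 0.649% in W465A and 28.7, 8.42 and 16.7% in W465A/W796A. In it W796A was below WT and W465A/W796A above W465A, with no overlap in either. In the rest of Zfp65 the levels were 67.2, 75.6 and 82.1% in WT, 50, 69.4 and 77.2% in W796A, 42.1, 29.7 and 33.3% in W465A and 73.7, 66.7 and 63.0% in W465A/W796A. There only the second contrast was free of overlap. The count rested on single libraries: leaving out each of the 18 in turn gave 0 to 239 calls, 0 in 12 of 18 and more than 100 in 3. It was 0 without any 1 of WT replicate 2, W796A replicate 1, W465A replicate 2 or 3, W465A/W796A replicate 1 or 3, or any library of W464A/W465A or W464A/W465A/W796A. It was 178, 239 and 154 without WT replicate 1, W796A replicate 2 and W465A replicate 1, and 9, 14 and 5 without WT replicate 3, W796A replicate 3 and W465A/W796A replicate 2. Set against the effect in W464A/W465A, the effect of W796A in W465A was called different in 0 of 634 Zfp features (0% of all features), and higher in 159 and lower in 1 at an unadjusted p under 0.05. Without W796A replicate 1 it was called in 75. Shares over all features are not given here for these omissions, nor for the counts at an unadjusted p. Nothing about Zfp genes is read from either.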

How the results depend on the processing

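No called result changed direction. The mean differences of W796A from WT and of W464A/W465A/W796A from W464A/W465A, whose libraries overlapped, took both signs when 1 library was left out (-5.30 to 5.26 and -1.87 to 1.0 points in the rest). The differences of mean level from WT moved by more than the spread between libraries as follows. With at least 10 reads they were -1.85 (promoters) and -20.4 (last exons) in W465A, -2.08, -22.4 and -33.7 (rest) in W464A/W465A, and -2.10, -22.2 and -34.0 in W464A/W465A/W796A. With reads counted once they were -2.54 and -24.1 in W464A/W465A and -2.54 and -23.9 in W464A/W465A/W796A. As means over genes they were -5.96 and -39.4 in W465A, -6.71 and -46.2 in W464A/W465A, -6.66 and -46.5 in W464A/W465A/W796A, and -2.76 in promoters of W465A/W796A. With promoters of 1000 bp they were -4.91, -5.59, -5.54 and -2.19 in these 4 mutants. W465A/W796A exceeded W465A in promoters by 0.905, 1.17, 3.20 and 2.72 points under these 4 settings and in last exons by 23.4 as a mean over genes. W464A/W465A against W465A was then -0.746 in promoters.

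Counts of called Zfp features fell with stricter minimums, and the cause was not tested. With at least 10 reads, which left 332 features, they were 132 (W465A), 134 (W464A/W465A), 136 (W464A/W465A/W796A), 16 (W465A/W796A) and 75 (W465A/W796A against W465A), and with at least 10 CpGs, which left 371, 163, 164, 164, 54 and 122. With at least 10 reads the called share fell from 57.9 to 39.8% for W465A (43.9% of all features) and from 17.5 to 4.82% for W465A/W796A (8.46% of all features). Of all features, 45.1% (W464A/W465A), 45.2% (W464A/W465A/W796A) and 17.9% (W465A/W796A against W465A) were called with at least 10 reads. With at least 10 CpGs these shares were 55, 55 and 36.2%, and 53.7% for W465A and 25.5% for W465A/W796A. With at least 25 points W465A/W796A had 50 against WT (8.25% of all features) and 140 against W465A (18%). W465A/W796A against WT had 51 without squeezing (10.2% of all features), 0 in limma (0.00589%), 46 in edgeR (9.83%) and 45 with the replicate block (10.2%). Apart from this 45, the block gave 1 call for W796A and left the other comparisons' counts within 1.5 times. Leaving out 1 library gave 0 to 2 calls for W796A, 0 to 200 for W465A/W796A against WT, 0 to 273 for W465A/W796A against W465A, 0 to 239 for the W796A effect in W465A against that in WT and 0 to 75 against that in W464A/W465A, and 319 to 376, 343 to 383 and 350 to 380 for W465A, W464A/W465A and W464A/W465A/W796A. Over all features, leaving out 1 library gave shares of 55.9 to 64.1% for W465A, 60.4 to 65.4% for W464A/W465A and 60.7 to 65.6% for W464A/W465A/W796A. The shares were 0 to 0.356% for W796A, 0 to 41.3% for W465A/W796A against WT and 0 to 45.4% for W465A/W796A against W465A. For the differences of the W796A effect between backgrounds, such shares are not given here. Over alternatives for single named features, 6061 stayed on their side of the threshold, 258 were no longer past it, 53 came past it and 0 reversed. The minimum of 10 reads changes the CpGs along with the depth, so depth alone was not tested.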
